A study of Mus musculus with 18 samples.

Results

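The comparison described here set HIRA KO livers against HIRA fl/fl AAV ctl livers, 12 of the 18 libraries of the series. The libraries were taken by their labels: 6 from HIRA fl/fl mice given AAV8 Tbg-Cre (HIRA KO, 3 males and 3 females) and 6 from HIRA fl/fl mice given AAV8 Tbg-MCS, which carries no Cre (HIRA fl/fl AAV ctl, 3 males and 3 females). The 6 libraries of wildtype mice that received the Cre virus were left out. All 12 libraries came from C57BL/6 mice with the same floxed alleles, and every mouse received a virus, so the groups differ in Cre and not in genotype or injection. Virus was injected into the retro-orbital sinus at 6 months of age and liver tissue was taken 12 months later, at 18 months. The Tbg promoter is active in hepatocytes and RNA from all cells of the tissue was sequenced together, and in which cells Hira was deleted was not measured here. In such tissue RNA, fewer cells of a type and less RNA per cell cannot be told apart. The labels call the libraries independent replicates without tying each to a separate mouse, so p-values measure the spread between these libraries.

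HIRA is a chaperone that places the histone variant H3.3 into chromatin outside of DNA replication, together with UBN1 or UBN2, CABIN1 and ASF1A. H3.3 is encoded by a pair of genes, H3f3a and H3f3b, which make the same protein from transcripts with polyA tails. Hepatocytes make most blood proteins, build and export cholesterol and fat, turn cholesterol into bile acids, and clear foreign compounds, and a network of transcription factors that includes HNF4A holds this programme in place. Bile duct cells, stellate cells, Kupffer cells, endothelial cells and lymphocytes make up the rest of the tissue.

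Libraries held 15210023 to 24389407 gene counts (median 20850253), and 22423 of 55421 genes were tested. Albumin (Alb) stood at 94380 to 169200 CPM (gene counts scaled to a common library size) in the 12 libraries, and the Y-linked genes Ddx3y, Eif2s3y, Kdm5d and Uty were at 0.474 CPM or below in every library labelled female and at 10.9 to 94.9 CPM in every library labelled male. The HIRA KO male libraries stood apart in how many weakly detected genes they listed: genes with 4 to 9 counts were 0.125 to 0.153 times as many as genes with 10 to 99 counts, whereas this ratio was 0.402 to 0.529 in each of the other 9. Counts of calls over all genes, and over most gene lists, are therefore also given for genes of at least 5 CPM in 3 or more libraries and for females alone. Genes were named by a rule given with the processing, and 104 further genes, listed there, were chosen after their values were seen.

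Hira itself did not pass the test. Hira, on chromosome 16 (18877037 to 18970309, mm10), was at 3.81, 3.02 and 9.52 CPM in HIRA KO males and at 3.58, 5.59 and 8.02 CPM in control males. It was at 3.69, 3.09 and 4.37 CPM in HIRA KO females and at 6.30, 7.68 and 6.16 CPM in control females. The females did not overlap, whereas the males did, with or without the library labelled HIRA KO male replicate 3. That library held the highest Hira value of all 12, which goes against its label, while its values of Cdhr2 (17.3 CPM) and Slc10a1 (136 CPM), genes described below, lay with those of the other HIRA KO libraries. The log2 fold change (HIRA KO over control, mean of the male and the female difference) was -0.46 (SE 0.31, adjusted p = 0.377, edgeR quasi-likelihood test with Benjamini-Hochberg adjustment over all genes tested), and -0.79 without that library. The deposited count covers the whole gene, which of its exons is floxed is not given in the sources used here, and hepatocytes are only part of the tissue, so this count does not measure recombination. Every direction below that draws on males includes the library labelled HIRA KO male replicate 3. Counts without it are given beside those list counts that it changed, and it left the counts of the HIRA and H3.3, transcription factor, secreted protein, lipoprotein, bile acid, zone, stellate, endothelial, fetal and respiratory lists as they were.

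The gene of this pathway that rose was H3f3a. On chromosome 1 (180800832 to 180813943, mm10), H3f3a was at 55.0, 66.8 and 55.9 CPM in HIRA KO males against 27.3, 25.3 and 24.8 CPM in control males. In females it was at 60.8, 60.01 and 53.4 CPM against 23.5, 28.8 and 25.5 CPM. Every HIRA KO library lay above every control library, including the library labelled HIRA KO male replicate 3, and the ratio of means was 2.29-fold in males and 2.24-fold in females (log2 fold change 1.18, SE 0.10, edgeR adjusted p = 1.08e-05). On the log2(FPKM + 1) scale the log2 fold change of H3f3a was 0.99, under the fold threshold of 1, so the call was lost there. Processed copies of H3f3a exist elsewhere in the genome and could take part of its reads, so its level is uncertain. The sister gene H3f3b, at a higher level, differed by 0.27 (SE 0.11, adjusted p = 0.142). Of 18 genes listed for the HIRA complex and H3.3 pathway, H3f3a was the 1 that passed. HIRA's partners Ubn1 (-0.07), Ubn2 (0.32), Cabin1 (-0.11) and Asf1a (0.58), the alternative H3.3 chaperones Daxx (-0.05) and Atrx (0.06) and the replication-coupled chaperone subunits Chaf1a and Chaf1b (0.03 each) did not. The median of the list was 0.04, as it was over all genes tested. Of 12 genes for replication-dependent histone H3, whose transcripts lack polyA tails, 3 passed the count minimum. None of these passed the test (edgeR, and DESeq2), and 1 had an unadjusted edgeR p under 0.05. All 3 lay above 0, with a median of 2.17 (0.23 to 3.99 without 1 library). The 12 genes summed to 2.184 to 3.164 CPM in HIRA KO females against 0.4685 to 0.6439 CPM in control females. Males overlapped (0.6133 to 1.434 against 0.4257 to 0.9231 CPM). At so few counts the test could not settle whether these genes changed.

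**Figure D1:**
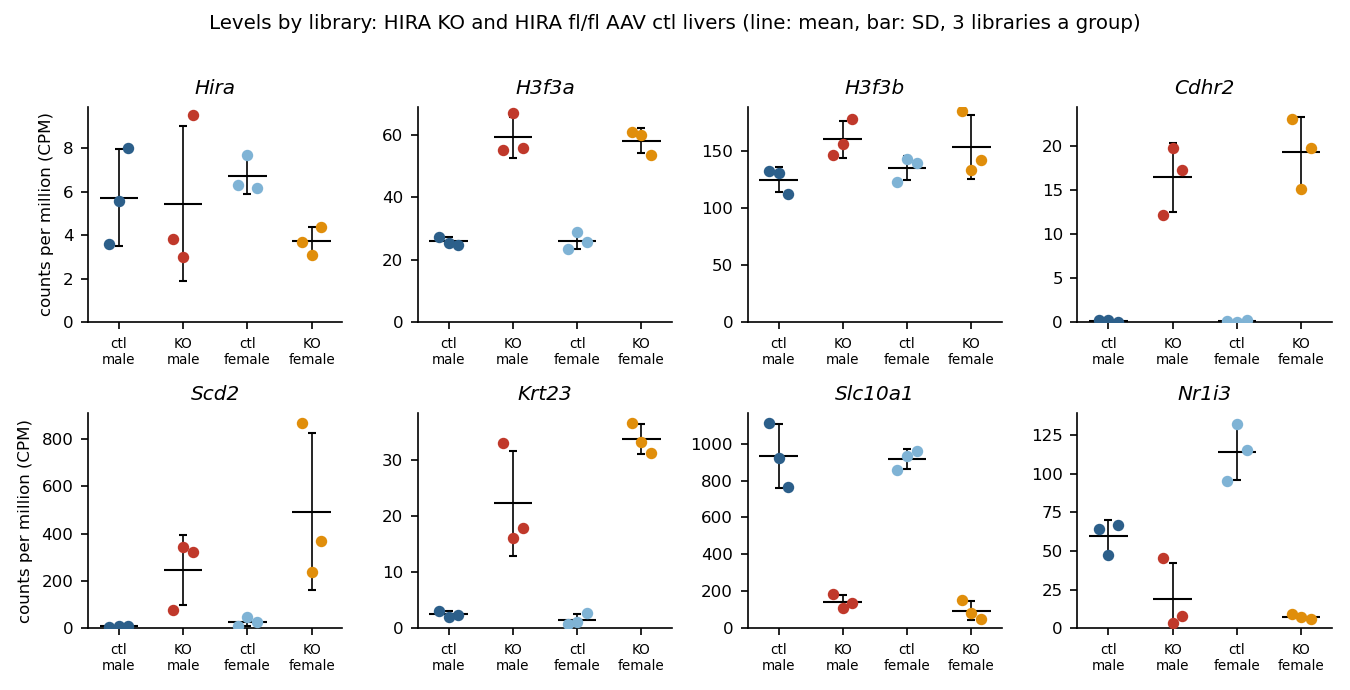
CPM (y axis, linear, from 0) of 8 genes in each of the 12 libraries (points), by group, with the mean (line) and SD (bar) of 3 libraries. H3f3a, Cdhr2, Scd2 and Krt23 lie higher in all 6 HIRA KO libraries and Slc10a1 and Nr1i3 lower, whereas Hira overlaps in males.

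Across the transcriptome, 476 genes were higher and 357 lower in HIRA KO with both sexes in the model (2.12% and 1.59% of the genes tested, called at an absolute log2 fold change above 1 and an edgeR adjusted p below 0.05). Among genes of at least 5 CPM in 3 or more libraries, 341 were higher and 185 lower (3.32% and 1.8% of 10275). Without the library labelled HIRA KO male replicate 3, 660 were higher and 489 lower, and 739 of the calls were shared with those of all 12 libraries. Without HIRA KO male replicate 2, 676 were higher and 622 lower, and without HIRA KO male replicate 1 the balance turned, with 551 higher and 615 lower. With no fold threshold it turned as well, with 858 higher and 1226 lower, so neither direction prevailed under every setting. Of the 833 genes called, 464 had HIRA KO and control libraries that did not overlap in either sex, which held in a like direction for 7.27% of all genes tested. In males alone 462 genes were higher and 459 lower (2.06% and 2.05%), and in females alone 118 and 97 (0.526% and 0.433%). On the log2(FPKM + 1) scale the male calls were split as 475 higher and 204 lower, and among genes of at least 5 CPM as 442 and 200. They turned to 544 higher and 782 lower without HIRA KO male replicate 1 and to 573 and 893 with no fold threshold. The female calls turned to 86 higher and 112 lower on the log2(FPKM + 1) scale and to 99 and 130 with a replicate block. Male calls numbered 371 to 1803 and female calls 106 to 338 when 1 library was left out, the extremes being without HIRA fl/fl AAV ctl male replicate 1 and HIRA KO male replicate 2, and without HIRA KO female replicates 2 and 1. Which sex held more calls depended on the model: separate fits within each sex gave 303 calls in males and 597 in females. Of the 215 genes called in females, 203 had the same sign in males. Of the 921 genes called in males, 751 had the same sign in females. In each sex separately 71 genes were called higher and 46 lower. Every count of list members below is to be read against the share of all genes given here for the same sexes and filter.

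**Figure D2:**
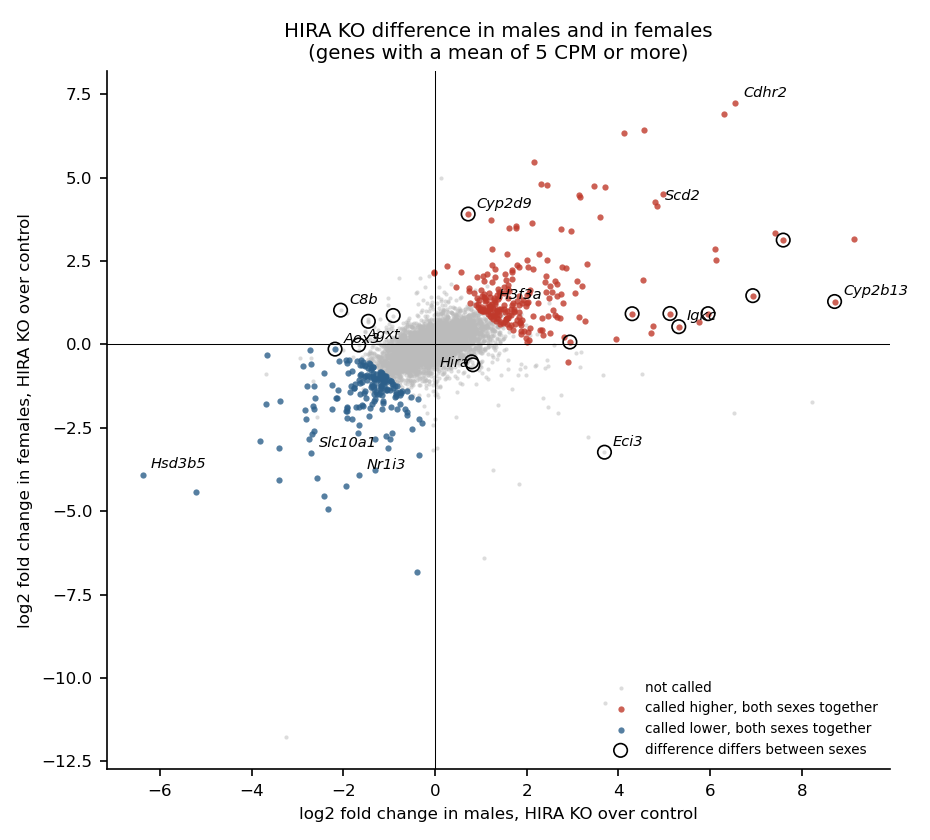
Log2 fold change of HIRA KO over control in males (x axis) and in females (y axis) for the 9606 genes with a mean of 5 CPM or more; red and blue points mark genes called higher (222) or lower (183) in both sexes together, and circles mark the 17 genes of this level whose difference differed between the sexes. Most called genes lie in the upper right or the lower left, and Cyp2d9, Cyp2b13, Eci3, C8b, Aox3 and Agxt lie off the diagonal.

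The largest rise among genes with a mean of at least 5 CPM whose libraries did not overlap was in Cdhr2, which encodes a cadherin of the epithelial brush border. Cdhr2 (chromosome 13, 54701461 to 54736662) was at 12.2, 19.8 and 17.3 CPM in HIRA KO males and at 23.0, 15.1 and 19.7 CPM in HIRA KO females, against 0.26, 0.27 and 0 CPM in control males and 0.10, 0 and 0.26 CPM in control females (log2 fold change 6.89, SE 0.46, adjusted p = 7.24e-07). It was barely detected in any control library and detected in every HIRA KO library. Pls1, which encodes the actin-bundling plastin of the brush border, rose likewise: it was at 8.95, 20.5 and 34.3 CPM in HIRA KO males and 16.4, 5.00 and 7.66 CPM in HIRA KO females, with at most 1.29 CPM in the controls (log2 fold change 5.38). Others of the 12 largest rises were Mdfi, an inhibitor of myogenic transcription factors (4.74), the maternally expressed long RNA Rian (5.24), the vomeronasal receptor gene Vmn2r20 (5.49), the pseudogene Cyp2d41-ps (6.60), the small brain cytoplasmic RNA Bc1 (4.33) and the uncharacterized 5330417C22Rik (4.54), with Scd2 and the immunoglobulin genes Igha, Ighg1 and Ighg2c described below. Vmn2r20 and Cyp2d41-ps belong to families of near-identical copies, so the assignment of their reads is uncertain. All 12 were called in males alone, and 11 of them in females alone, Ighg1 being the exception. Groups without overlap were a condition for the 12 largest rises and 12 largest falls. Wherever these genes are named, the lack of overlap is therefore no further support.

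The 12 largest falls by the same rule included transporters and enzymes typical of mature hepatocytes. Ces3b, a carboxylesterase of the endoplasmic reticulum, was at 52.1, 23.97 and 27.7 CPM in HIRA KO males against 366, 523 and 199 CPM in control males, and at 13.8, 6.32 and 9.03 CPM in HIRA KO females against 156, 164 and 171 CPM in control females (log2 fold change -3.73, SE 0.27, adjusted p = 1.43e-06). All 6 HIRA KO libraries thus lay below all 6 controls. Reads could be shared between Ces3b and its near copy Ces3a, which also fell (-2.16). The sulfotransferase Sult2a8 (-3.47), the water channel Aqp8 (-2.68), the phosphatase Acpp (-4.81), the fatty acid carrier Fabp5 (-3.36), BC024139 (-2.74) and the steroid dehydrogenase Hsd3b5 (-5.14) fell too. Hsd3b5 was close to 0 in females of either group, and its call was lost without HIRA fl/fl AAV ctl female replicate 3 (log2 fold changes without 1 library each -6.15 to -4.26). The remaining members, Slc10a1, Nr1i3, Pltp, Mup3 and Mup12, belong to groups described below. Of the 12 genes, 11 were called in males alone and 8 in females alone.

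Lipid synthesis had the lowest median log2 fold changes among the metabolic gene groups. By calls in females alone, P450 and xenobiotic genes held more falls (9 of 68). Of 28 genes of cholesterol synthesis and uptake, 9 fell and none rose, and 26 had a log2 fold change below 0. The median was -0.80, against 0.04 over all genes tested. The median was -0.84 in males and -0.74 in females, with 11 genes called lower in males and 2 in females. Among genes of at least 5 CPM, 6 of 27 fell. Leaving out 1 library gave 6 to 15 falls, with 15 without HIRA KO female replicate 1 and 10 without the library labelled HIRA KO male replicate 3. The genes that fell cover steps from the start of the pathway to its end: Hmgcs1, which makes HMG-CoA; Mvd and Idi1, which make the isoprene units; Fdft1 and Sqle, which make squalene and its epoxide; and Cyp51, Hsd17b7 and Dhcr7, which turn lanosterol into cholesterol. The ninth was Scap, which escorts the sterol-sensing transcription factors SREBP1 and SREBP2 to their activation.

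Hmgcs1 was at 287, 291 and 348 CPM in HIRA KO males against 972, 766 and 651 CPM in control males, and at 495, 336 and 256 CPM in HIRA KO females against 718, 1054 and 688 CPM in control females (log2 fold change -1.27, SE 0.17, adjusted p = 0.000337). The groups did not overlap in either sex, and the means were lower by 2.58-fold (males) and 2.26-fold (females). Scap was at 41.7, 40.4 and 41.8 CPM in HIRA KO males against 152, 166 and 103 CPM in control males. In females Scap was at 47.5, 65.5 and 73.2 CPM against 143, 181 and 141 CPM (log2 fold change -1.54, SE 0.14, adjusted p = 1.47e-05). Sqle (-1.27), Hsd17b7 (-1.11), Mvd (-1.33) and Dhcr7 (-1.25) kept their calls in all 12 fits that each left out 1 library, whereas Idi1 (-1.02), Fdft1 (-1.01) and Cyp51 (-1.01), which lie at the fold threshold, kept theirs in 5, 6 and 6 of the 12 (log2 fold changes -1.14 to -0.90, -1.19 to -0.92 and -1.14 to -0.93). Ebp (0.26), a sterol isomerase gene, did not pass.

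**Figure D3:**
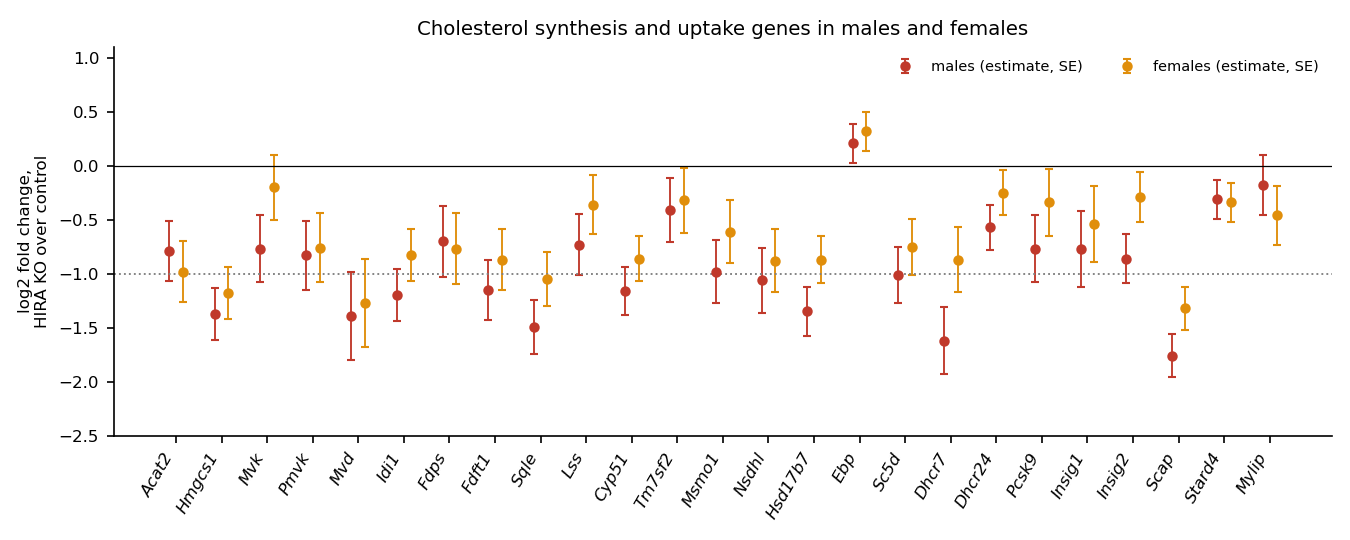
Log2 fold change of HIRA KO over control (y axis; point, estimate; bar, SE) in males and in females for 25 cholesterol synthesis and uptake genes, from early to late steps and then uptake and regulation. In both sexes all but Ebp lie below 0, and Scap, Hmgcs1, Mvd and Sqle lie below the dotted line at -1 in each.

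The start of Hmgcs1 is shown because sterol-regulated genes carry short sterol response elements near their starts, and this was the member in which the letters TCACNCCAC occurred. The window runs from 250 bases before to 50 bases after the RefSeq gene start (GRCm38.p6, chr13:119690101-119690400, plus strand), and the capitals mark the match, which begins at base 114.
Hmgcs1: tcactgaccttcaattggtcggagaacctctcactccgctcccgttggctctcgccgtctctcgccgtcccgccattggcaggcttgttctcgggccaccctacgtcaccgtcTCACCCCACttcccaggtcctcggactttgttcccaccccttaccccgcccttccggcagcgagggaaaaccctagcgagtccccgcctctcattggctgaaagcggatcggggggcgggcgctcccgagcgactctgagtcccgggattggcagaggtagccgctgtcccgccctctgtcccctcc
Searched on both strands, these letters occurred in 1 of the 20 cholesterol genes with a window (5.0%) and in 388 of 27025 genes (1.44%). Other lists held them as often or more often, such as P450 and xenobiotic genes (6.67%) and macrophage markers (7.14%). A match of letters is no measured binding site.

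Fatty acid and triglyceride synthesis followed the same direction, with 1 marked exception. Of 27 genes, 9 fell and 1 rose, and the median was -0.62 (males -0.71, females -0.60), and 5 were called lower in males alone and 1 in females alone. Among the 26 genes of at least 5 CPM, 9 fell. The 9 falls became 4 to 10 when 1 library was left out, with 4 without HIRA fl/fl AAV ctl male replicate 2 and 5 without HIRA fl/fl AAV ctl male replicate 1 or 3, HIRA fl/fl AAV ctl female replicate 2 or 3, or HIRA KO female replicate 2 or 3, and with 10 without the library labelled HIRA KO male replicate 3. Dgat2, which makes the last step of triglyceride synthesis, was at 202, 228 and 201 CPM in HIRA KO males against 596, 493 and 552 CPM in control males. In females Dgat2 was at 307, 267 and 291 CPM against 676, 650 and 724 CPM (log2 fold change -1.31, SE 0.10, adjusted p = 2.06e-06). Replicates of Dgat2 differed little and no library overlapped between the groups. The desaturase gene that rose was Scd2, which is weakly expressed in adult liver: it was at 76.3, 344 and 321 CPM in HIRA KO males and 867, 240 and 367 CPM in HIRA KO females, against 7.27, 10.2 and 8.60 CPM in control males and 8.95, 48.9 and 25.9 CPM in control females (log2 fold change 4.48, SE 0.47, adjusted p = 4.21e-05). Its libraries varied widely within the HIRA KO groups without reaching the controls. Scd1, the main liver desaturase, fell (-1.31), at 2137, 7978 and 10990 CPM in HIRA KO males against 15070, 16580 and 16320 CPM, and at 8603, 2330 and 6212 CPM in HIRA KO females against 8261, 15580 and 22620 CPM.

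The other members that fell were the acetyl-CoA carboxylase Acacb (-1.71), the fatty acid synthase Fasn (-1.41), the acetate-activating enzyme Acss2 (-1.33), the elongases Elovl3 (-2.40), Elovl5 (-1.37) and Elovl6 (-1.32), and the lipid droplet lipase Pnpla3 (-2.55). The calls of Scd1, Fasn, Acss2 and Elovl6 were kept in 5, 4, 4 and 2 of the 12 fits without 1 library, with log2 fold changes of -1.54 to -1.10, -1.91 to -1.19, -1.77 to -1.13 and -1.84 to -1.11, and that of Pnpla3 was lost without HIRA fl/fl AAV ctl male replicate 2. HIRA KO male replicate 1 and HIRA KO female replicate 2 had the lowest Fasn of their groups, at 242 and 234 CPM. Of 32 genes of fatty acid oxidation and ketogenesis none passed in either direction by edgeR with both sexes together, with a median of -0.19. An unadjusted edgeR p under 0.05 was found for 14, 3 of them higher. In males alone 1 was called lower, and in females alone none was called. DESeq2 called 1 higher, and 2 were higher and 1 lower without the library labelled HIRA KO male replicate 3.

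Genes of lipoproteins and lipid transport had a median of -0.24, with 2 of 36 called higher and 3 lower, against 2.12% and 1.59% of all genes tested. In males alone 1 rose and 5 fell (2.06% and 2.05% of all genes), and in females alone 2 and 2 (0.526% and 0.433%). Pltp, which transfers phospholipids between lipoproteins, was at 24.2, 25.2 and 18.1 CPM in HIRA KO males against 149, 140 and 133 CPM in control males. In females Pltp was at 60.1, 17.9 and 26.8 CPM against 150, 218 and 266 CPM, again without overlap (log2 fold change -2.62, SE 0.25, adjusted p = 1.65e-05). Apom, an apolipoprotein of HDL, fell as well (-1.54, SE 0.18), and Apoa1, the main protein of HDL, fell by 1.17 on the log2 scale, more in males (-1.88) than in females (-0.46), a difference between the sexes that did not pass (adjusted p = 0.439); its call was kept in 7 of 12 fits without 1 library (-1.46 to -0.99). Lpl, which encodes a lipase made mainly by muscle, fat and macrophages, rose (2.55, SE 0.47), with 385 and 318 CPM in HIRA KO female replicates 2 and 3 and 11.2 to 59.7 CPM in the other 4 HIRA KO libraries, against 7.88 to 22.5 CPM in controls. The endocytic receptor Lrp2 was the other that rose (1.85; 3.17 in males and 0.52 in females), and its call was kept in 4 of 12 fits without 1 library (1.52 to 2.10).

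Bile acid genes were lowered in part. Of 31 genes of bile acid synthesis and transport, 4 fell and none rose in both sexes together (median -0.40; males -0.49, females -0.33), while 1 rose and 5 fell in males alone, none rose and 2 fell in females alone, and 1 rose and 4 fell among the 28 genes of at least 5 CPM. The falls numbered 3 to 6 when 1 library was left out. Slc10a1, the transporter by which hepatocytes take up bile salts from blood (chromosome 12, 80953183 to 80968705), was at 184, 110 and 136 CPM in HIRA KO males against 1113, 920 and 765 CPM in control males. It was at 154, 81.7 and 51.5 CPM in HIRA KO females against 855, 935 and 958 CPM in control females (log2 fold change -2.98, SE 0.23, adjusted p = 2.26e-06). Means of Slc10a1 were lower by 6.51-fold (males) and 9.56-fold (females), and no library approached the other group. Slc27a5, which activates bile acids for conjugation (-1.19, SE 0.12), and Abcc3, an export pump of the blood-facing membrane (-1.72, SE 0.27), fell in both sexes together. The uptake carrier Slco1a1 fell (-1.45), with -2.72 in males and -0.17 in females, and lost its call without HIRA KO female replicate 1, HIRA fl/fl AAV ctl male replicate 2 or HIRA fl/fl AAV ctl female replicate 1 (log2 fold changes -1.92 to -1.21). Cyp7a1, the rate-limiting enzyme of the classic route, did not pass (-0.54, adjusted p = 0.228).

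Amino acid and glucose genes held 3 and 5 calls in both sexes together, against 2.12% higher and 1.59% lower over all genes tested. In males alone 1 amino acid gene rose and 7 fell, and 2 glucose genes rose and 4 fell (2.06% and 2.05% of all genes). In females alone 1 and 4 amino acid genes and 1 and 2 glucose genes did so (0.526% and 0.433%). With no fold threshold 1 amino acid gene was higher and 21 lower in both sexes together (edgeR adjusted p below 0.05). Of 56 genes of amino acid catabolism and the urea cycle, 3 fell and none rose (median -0.34; males -0.51, females -0.14): Gldc of the glycine cleavage system (-1.47, SE 0.11, adjusted p = 1.97e-06), the cysteine dioxygenase Cdo1 (-1.19, SE 0.11) and the proline dehydrogenase Prodh (-1.17), whose call was lost without HIRA fl/fl AAV ctl male replicate 1 (-0.99). Gldc was at 64.8, 66.2 and 65.7 CPM in HIRA KO males and 66.1, 81.7 and 89.8 CPM in HIRA KO females, against 244, 213 and 202 CPM in control males and 205, 158 and 184 CPM in control females. Cdo1 likewise did not overlap, at 812 to 1118 CPM in the 6 HIRA KO libraries and 1959 to 2516 CPM in the 6 controls. Of the amino acid genes 2 to 5 fell when 1 library was left out, with 5 without HIRA KO female replicate 1, and 1 rose without the library labelled HIRA KO male replicate 3. Among 31 genes of gluconeogenesis, glycolysis and glycogen, the liver glucose transporter Slc2a2 (-1.08, SE 0.11) and the liver pyruvate kinase Pklr (-2.06, SE 0.29) fell, whereas the non-hepatic pyruvate kinase Pkm (1.18), the hexokinase Hk2 (1.65) and the mitochondrial Pck2 (1.18) rose. Without HIRA fl/fl AAV ctl female replicate 1 a single gene of this list rose, and without the library labelled HIRA KO male replicate 3 3 rose and 3 fell. The rises of Hk2 and Pck2 were lost in 2 and 5 of 12 fits without 1 library (HIRA KO female replicate 2 or HIRA fl/fl AAV ctl female replicate 1 for Hk2; ranges 1.43 to 1.84 and 0.95 to 1.35). Pkm and Hk2 were higher by 1.74 and 2.72 in males and by 0.62 and 0.57 in females.

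Cytochrome P450 and other xenobiotic genes split in both directions. Of 68 genes, 8 rose and 12 fell, against 2.12% and 1.59% of all genes tested, with a median of -0.03. In males alone 6 rose and 9 fell, in females alone 3 and 9, and among the 65 genes of at least 5 CPM 7 and 11. Leaving out 1 library gave 6 to 8 rises and 8 to 14 falls, with 7 and 12 without the library labelled HIRA KO male replicate 3. Cyp2c55 rose from 14.2, 15.2 and 17.5 CPM in control males to 43.3, 75.1 and 84.2 CPM in HIRA KO males, and from 3.90, 5.15 and 5.42 CPM in control females to 58.2, 38.7 and 85.4 CPM in HIRA KO females (log2 fold change 2.88, SE 0.21, adjusted p = 1.43e-06). Cyp3a11, a main drug-metabolizing enzyme, rose by 1.46 (SE 0.20), being at 7097, 10570 and 10330 CPM against 5194, 4169 and 5562 CPM in males and at 4478, 4869 and 5134 CPM against 678, 1140 and 1765 CPM in females. The groups of either gene did not overlap. Cyp2b10, the classic target of the nuclear receptor CAR, rose (2.24) while Nr1i3, which encodes CAR, fell (-2.79). Cyp2c37 (-2.28, SE 0.22), Cyp2c50 (-1.41), Cyp2c54 (-1.10), the sulfotransferase Sult1a1 (-1.35) and the carboxylesterase Ces1g (-1.01) fell, next to Ces3a, Ces3b and Sult2a8 named above. Cyp3a59 (1.07) and Cyp2b9 (1.99) rose. Ces1g, Cyp2b9, Cyp2c54 and Cyp3a59 kept their calls in 5, 3, 10 and 10 of 12 fits without 1 library (-1.10 to -0.94, 1.70 to 2.64, -1.42 to -0.92 and 0.98 to 1.15). Cyp2b, Cyp2c and Cyp2d genes lie in clusters of near copies that can share reads, so the split within a cluster is uncertain. Cyp2c65 was at 0 counts in all 6 control libraries and at 3.21, 8.48 and 9.22 CPM in HIRA KO males (at least 159-fold higher, against 3 counts over the 3 control males) and 0.053, 0.50 and 0.889 CPM in HIRA KO females (at least 11.9-fold higher).

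Promoter windows are shown for Cyp3a11, which rose, and Cyp2c69, a female-typical P450 that fell (-1.81; called in 8 of 12 fits without 1 library, -2.05 to -1.45), since each holds the same HNF4 direct repeat, CAAAGTCCA, in capitals. They are RefSeq windows of GRCm38.p6 on the minus strand, at chr5:145879805-145880104 with the match from base 142 and at chr19:39886720-39887019 with the match from base 176.
Cyp3a11: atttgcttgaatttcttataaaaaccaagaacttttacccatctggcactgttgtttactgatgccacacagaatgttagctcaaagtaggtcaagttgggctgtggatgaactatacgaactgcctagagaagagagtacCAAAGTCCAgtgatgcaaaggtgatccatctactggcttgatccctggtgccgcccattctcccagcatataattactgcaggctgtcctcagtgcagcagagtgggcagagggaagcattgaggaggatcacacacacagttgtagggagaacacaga
Cyp2c69: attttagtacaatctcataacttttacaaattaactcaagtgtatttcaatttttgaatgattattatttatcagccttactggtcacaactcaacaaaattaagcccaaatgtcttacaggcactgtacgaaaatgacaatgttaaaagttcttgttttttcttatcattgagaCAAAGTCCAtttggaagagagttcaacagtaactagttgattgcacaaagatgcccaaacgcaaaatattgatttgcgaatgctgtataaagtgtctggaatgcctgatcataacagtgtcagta
On either strand these letters occurred in 150 of 27025 genes (0.555%), and in 9 of the 60 P450 and xenobiotic genes with a window (15.0%). They also occurred in 5 of 28 female-biased genes (17.9%) and in 2 of 22 bile acid genes (9.09%), Cyp2c70 and Cyp8b1. The same letters thus stand before a gene that rose and a gene that fell.

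Glutathione and NRF2 target genes were led by 4 glutathione transferases. Of 49 genes, 4 rose and 1 fell (Abcc3), against 2.12% and 1.59% of all genes tested, with a median of 0.07. With no fold threshold the balance turned, with 5 higher and 8 lower at an edgeR adjusted p below 0.05. In each sex alone 4 of the 49 rose, and 5 rose among the 42 of at least 5 CPM. Without the library labelled HIRA KO male replicate 3 or without HIRA KO female replicate 1, 2 fell. Gsta1 was at 31.5, 53.5 and 55.7 CPM in HIRA KO males against 4.35, 0.745 and 5.68 CPM in control males. In females Gsta1 was at 37.8, 11.7 and 11.6 CPM against 0.0521, 0.859 and 1.33 CPM (log2 fold change 4.20, SE 0.51, adjusted p = 0.000138). Gsta4 (1.51, SE 0.18), which detoxifies lipid peroxidation products, Gstp2 (2.57, or 0.62 and not called on log2(FPKM + 1)) and Gsta2 (1.62) rose too. Gsta1 and Gsta2 are near copies and may share reads. Nqo1 (-0.04), Gclc (-0.24), Srxn1 (-0.19) and Hmox1 (0.15), common markers of NRF2 activity, did not pass.

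Among hepatocyte transcription factors Nr1i3 was the gene called. Of 35 genes, 1 fell and none rose, against 1.59% and 2.12% of all genes tested. None was called in males alone, and 1 was called lower in females alone (0.433% of all genes). The median was -0.36, with 26 below 0, and 8 were lower and 1 higher at an edgeR adjusted p below 0.05. The summed level of the list did not overlap in either sex. It was at 2902 to 3385 CPM in HIRA KO males against 3490 to 4143 CPM in control males. In females it was at 2962 to 3412 CPM in HIRA KO against 3691 to 3866 CPM in control. Nr1i3 was at 45.5, 3.22 and 7.73 CPM in HIRA KO males against 64.3, 47.2 and 66.7 CPM in control males, and at 9.55, 7.09 and 6.15 CPM in HIRA KO females against 95.1, 132 and 115 CPM in control females (log2 fold change -2.79, SE 0.44, adjusted p = 0.00113). HIRA KO male replicate 1 lay just below the lowest control, and the other 5 HIRA KO libraries far below. Hnf4a was at 266 to 421 CPM in HIRA KO and 466 to 578 CPM in control libraries, and had an adjusted p of 0.0178 without reaching the fold threshold (-0.52, SE 0.13); Cebpb stood on the other side (0.59, SE 0.15, adjusted p = 0.0192). Of 59 hepatocyte secreted proteins tested, 3 fell and none rose (median -0.36), namely Serpina1d (-1.10, or -0.97 and not called on log2(FPKM + 1)), Serpina3k (-1.45) and Apoa1. In males alone 6 fell and in females alone 1, against 2.05% and 0.433% of all genes. With both sexes together 7 fell without HIRA KO male replicate 1 and 6 without HIRA KO female replicate 2. The summed level of this list overlapped in both sexes. It was at 237500 to 261100 CPM in HIRA KO males against 245800 to 270300 CPM in control males. In females it was at 266000 to 330100 CPM in HIRA KO against 230100 to 284900 CPM in control. Serpina1d and Serpina3k have near copies. Alb (0.37, adjusted p = 0.133) and the transferrin gene Trf (0.30) did not pass. Ttr (0.91, adjusted p = 0.00255) and Rbp4 (0.76, adjusted p = 0.00321), which carry thyroxine and retinol, had higher values below the fold threshold.

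Genes of the lobule's zones were counted by zone. Of 30 pericentral genes 5 fell and 1 rose (median -0.36), and of 26 periportal genes 1, Cdh1, rose and none fell (median -0.05). These counts are to be read against 1.59% lower and 2.12% higher over all genes tested, and a difference between the zones was not tested. By sex the pericentral median was -0.20 in males and -0.42 in females, with 5 genes called lower and 1 higher in each. The periportal median was -0.38 in males, with 3 called lower and 1 higher, and 0.21 in females, with 3 called higher and none lower, so that the zones did not part in this way in males. Among the pericentral genes that fell were Cyp2c37, Gulo (-1.24, SE 0.13), the glutamate transporter Slc1a2 (-1.38) and Car3 (-1.10), with the call of Car3 lost without HIRA KO female replicate 2 or 3 (lowest size -0.97). Slc1a4 was the pericentral gene that rose (1.25). Glul, the glutamine synthetase of the cells next to the central vein, had an adjusted p of 0.000376 below the fold threshold (-0.83). Cyp2e1 (-0.02) and the WNT targets Axin2 (-0.30) and Lgr5 (-0.06) did not pass.

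**Figure D4:**
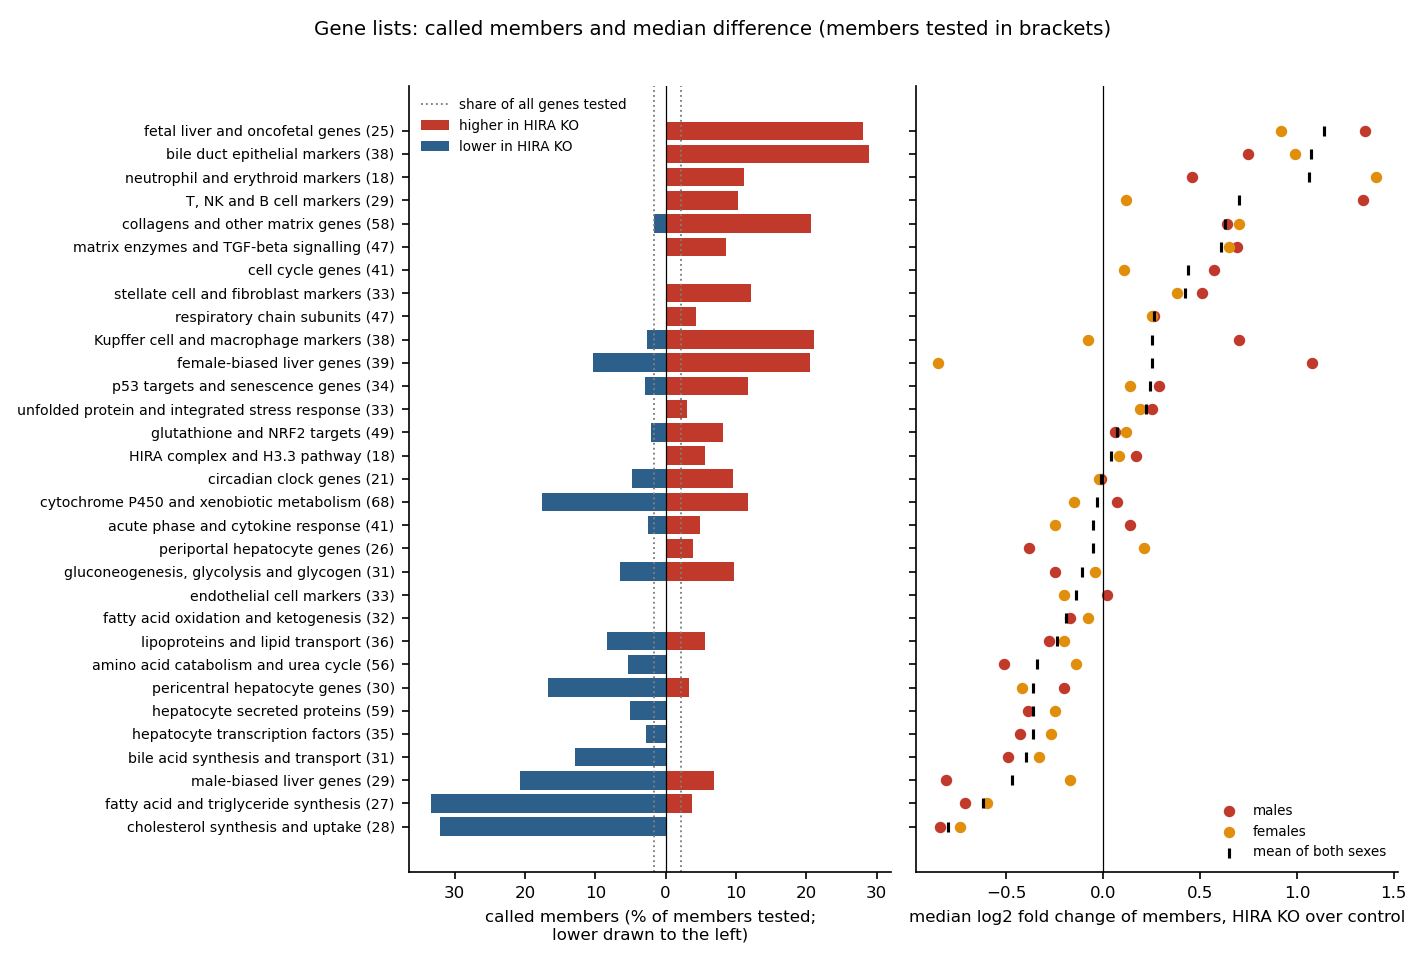
Left, share of the tested members of each of 31 gene lists called higher (red, to the right) or lower (blue, to the left) in HIRA KO, both sexes together, with the shares over all genes tested (2.12% and 1.59%) as dotted lines; right, median log2 fold change of the members in males, females and both. Bile duct and fetal liver genes lie at the top, cholesterol and fatty acid synthesis at the bottom, and female-biased genes have medians of opposite sign in the sexes (1.08 in males and -0.85 in females).

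Bile duct epithelial markers rose in part. Of 38 genes, 11 rose and none fell, against 2.12% and 1.59% of all genes tested. The median was 1.07 (males 0.75, females 0.99). Among the 24 genes of at least 5 CPM 11 rose, against 3.32% of all such genes. The rises numbered 8 to 13 when 1 library was left out, with 13, and 1 fall, without the library labelled HIRA KO male replicate 3. Within males 8 were called higher and 1 lower, and within females 4 higher and none lower. Krt23, a keratin of injured liver and bile duct cells (chromosome 11, 99477974 to 99493137), was at 33.0, 16.0 and 17.8 CPM in HIRA KO males against 3.12, 2.02 and 2.33 CPM in control males. In females Krt23 was at 36.6, 33.1 and 31.3 CPM against 0.78, 1.16 and 2.76 CPM (log2 fold change 3.78, SE 0.28, adjusted p = 1.97e-06). Krt19, the classic bile duct keratin, was at 18.9, 9.51 and 10.1 CPM in HIRA KO males and 6.12, 12.8 and 6.29 CPM in HIRA KO females, against 1.64, 2.61 and 2.96 CPM in control males and 4.16, 2.10 and 2.20 CPM in control females (log2 fold change 2.00, SE 0.30). Neither keratin overlapped between groups.

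E-cadherin (Cdh1) rose (2.49, SE 0.35), at 84.8, 80.5 and 108 CPM in HIRA KO males and 45.6, 104 and 94.8 CPM in HIRA KO females, against 7.21 to 36.3 CPM in the 6 controls. Sox4 (2.06), the progenitor marker Prom1 (2.05), Muc1 (1.90), the secreted matrix protein Spp1 (1.28), the RNA-binding protein gene Bicc1 (1.17) and the growth factor Pdgfa (1.19) rose as well, with Bicc1 kept in 4 of 12 fits without 1 library (0.99 to 1.38). The duct transcription factor Sox9 (1.14) and Epcam (1.23) rose in all 12 libraries together, but each kept its call in 4 of 12 fits without 1 library (0.91 to 1.44 and 1.05 to 1.45). Other defining duct genes did not pass: Krt7 (1.26, adjusted p = 0.116), Pkhd1 (0.12), Krt18 (0.08) and Clu (-0.04). The summed level of the list, which Clu dominates, was 2170 to 2639 CPM in HIRA KO males against 2354 to 2738 CPM in control males and 2489 to 3113 CPM in HIRA KO females against 2045 to 2206 CPM in control females. Whether hepatocytes or duct cells gave the additional transcripts was not tested.

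Genes of fetal liver and liver tumours rose in part. Of 25 genes, 7 rose and none fell (median 1.14), with 6 in males alone, 2 in females alone, 7 of the 12 of at least 5 CPM, and 5 to 8 when 1 library was left out: Scd2, Rian, Meg3, Sox9, the surface protein gene Ly6d (2.12), Pkm and Hk2. Meg3, transcribed next to Rian from the imprinted Dlk1 region, was at 70.8, 38.4 and 18.6 CPM in HIRA KO males against 1.79, 2.34 and 2.33 CPM in control males, and at 2.90, 2.91 and 3.15 CPM in HIRA KO females against 1.77, 1.46 and 1.51 CPM in control females (log2 fold change 2.61, SE 0.27). Rian was at 13.0, 13.3 and 5.17 CPM in HIRA KO males and 50.1, 2.00 and 0.93 CPM in HIRA KO females, and at most 0.83 CPM in the controls. The rise of Rian in females came mostly from HIRA KO female replicate 1. That no HIRA KO library overlapped a control of its sex was a condition for its choice among the largest rises. The fetal genes Afp (0.75), H19 (1.46) and Gpc3 (-0.19) did not pass.

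Collagens and other matrix genes rose in part. Of 58 genes, 12 rose and 1 fell, against 2.12% and 1.59% of all genes tested. The median was 0.63 (males 0.64, females 0.70), and 50 were above 0. By limma voom 8 rose and by DESeq2 17. Of the 58 genes 7 were called higher in males alone and 3 in females alone, and 11 of the 45 of at least 5 CPM rose. The rises numbered 7 to 14 when 1 library was left out, with 7 without HIRA KO female replicate 2, HIRA KO female replicate 3 or HIRA fl/fl AAV ctl male replicate 1, and 14 without the library labelled HIRA KO male replicate 3. Col1a1 was at 19.96, 9.30 and 13.7 CPM in HIRA KO males against 4.50, 7.18 and 4.32 CPM in control males, and at 16.0, 34.2 and 51.8 CPM in HIRA KO females against 10.5, 10.7 and 14.1 CPM in control females (log2 fold change 1.48, SE 0.27, adjusted p = 0.00274). Col1a2 (1.32), Col3a1 (1.00), Col5a2 (2.62), Thbs1 (2.57, SE 0.41), which activates TGF-beta, and the calcification inhibitor Mgp (1.99) rose, and the basement membrane collagen Col15a1 fell (-1.04). Col6a3 (1.03), the laminin chain Lama2 (1.72) and Ltbp1 (1.02), which binds latent TGF-beta, also rose. The calls of Col3a1, Col15a1, Col6a3, Lama2 and Ltbp1 were kept in 6, 3, 3, 6 and 5 of 12 fits without 1 library, with log2 fold changes of 0.78 to 1.19, -1.30 to -0.83, 0.75 to 1.22, 1.40 to 1.97 and 0.90 to 1.15. HIRA KO female replicates 2 and 3 had the highest Col1a1, Col1a2 and Col3a1 of all libraries. The summed matrix level was lower in HIRA KO males, at 2225 to 2684 CPM against 2840 to 3758 CPM in control males, and overlapped in females (2610 to 3896 against 3607 to 3687 CPM). The most abundant members, Fn1 (-0.83) and Col18a1 (-0.93), which hepatocytes make, lay below 0.

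Matrix enzymes and TGF-beta genes included 4 that rose and none that fell, of 47 (median 0.61), among them Pdgfa, Mmp12 (2.71), the elastase of macrophages, and Plat (1.87), whose call was lost without HIRA KO female replicate 3. Of this list 1 rose in males alone and none in females alone, and 5 of the 25 of at least 5 CPM. DESeq2 called 11 higher and 1 lower, and the rises numbered 3 to 8 when 1 library was left out, with 8 without HIRA KO male replicate 2 and 7 without the library labelled HIRA KO male replicate 3. Mmp2 (1.19, adjusted p = 0.0882) and Timp1 (2.69, adjusted p = 0.0997) did not pass. Of 33 stellate cell and fibroblast markers 4 rose and none fell (median 0.42, 31 above 0): Lum (1.31), Vim (1.26), Fbln2 (1.25) and Dpt (1.51). In males alone 2 rose and in females alone 1, and 3 to 6 rose when 1 library was left out. Vim lost its call without HIRA KO male replicate 1 (0.98), and Dpt kept its call in 4 of 12 fits without 1 library (1.31 to 1.75). The defining quiescent stellate markers Lrat (0.28), Reln (0.23) and Des (0.37) and the activation marker Acta2 (0.78) did not pass, and Dcn, the marker of highest level, had an adjusted p of 0.0461 below the fold threshold (0.48). The list summed to 933 to 1040 CPM in HIRA KO males against 585 to 748 CPM in control males and to 1119 to 1567 CPM in HIRA KO females against 917 to 1083 CPM in control females, without overlap in either sex. The part of cell numbers in these rises was not tested.

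Macrophage markers rose in a subset. Of 38 genes 8 rose and 1, Fabp5, fell, against 2.12% and 1.59% of all genes tested. The median was 0.25 (males 0.70, females -0.08). In males alone 7 rose and in females alone 3, and 6 of the 31 of at least 5 CPM. The rises numbered 5 to 9 when 1 library was left out, with 5 without HIRA KO female replicate 2 or 3 or HIRA fl/fl AAV ctl male or female replicate 1, and 8 rose and 2 fell without the library labelled HIRA KO male replicate 3. Cd63, a lysosomal tetraspanin, was at 19.8, 10.8 and 22.9 CPM in HIRA KO males against 3.94, 6.76 and 5.93 CPM in control males. In females Cd63 was at 16.0, 37.5 and 44.1 CPM against 6.56, 10.3 and 7.92 CPM (log2 fold change 1.83, SE 0.26, adjusted p = 0.000488). The others that rose were Gpnmb (4.12), Spp1, Lpl, Itgax (1.56) and Lgals3 (1.13), known from lipid-laden and tissue-repair macrophages, and Ly6c2 (2.92) and Ccr2 (1.13), known from monocytes. Gpnmb was at 22.7 and 35.3 CPM in HIRA KO female replicates 2 and 3 and at 0.82 to 2.90 CPM in the other HIRA KO libraries, against 0.0972 to 1.16 CPM in controls, so that HIRA KO female replicate 1 overlapped its controls. Itgax, Ccr2 and Lgals3 kept their calls in 8, 4 and 4 of 12 fits without 1 library (1.39 to 1.74, 0.94 to 1.29 and 0.78 to 1.28). The resident Kupffer genes Clec4f (0.11), Vsig4 (-0.12), Timd4 (-1.08) and Adgre1 (-0.08) did not pass, and the list summed to 1172 to 1463 CPM in HIRA KO males against 759 to 1043 CPM in control males and to 1463 to 2347 CPM in HIRA KO females against 1566 to 1784 CPM in control females. Spp1, Lpl and Cd63 are also made by cells other than macrophages, so the list does not separate the sources.

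None of 33 endothelial markers passed in either direction by edgeR, DESeq2 or limma voom (median -0.14; 6 had an unadjusted p under 0.05, each lower), and the summed level was 640 to 756 CPM in HIRA KO males and 589 to 809 CPM in control males. In females it was 651 to 772 CPM in HIRA KO and 816 to 884 CPM in control. Eng (-0.14) and Fcgr2b (0.06), those of highest level, did not pass. Of the lymphoid markers called in both sexes together, the antibody genes Jchain and Igkc had the largest rises, and Igkc overlapped in females. Of 29 T, NK and B cell markers 3 rose, Jchain (3.03), Igkc (2.92) and Cd3g (1.58), and the last kept its call in 3 of 12 fits without 1 library (1.34 to 1.85). In males alone 7 were called higher (median 1.34) and in females alone none (median 0.12), and Igkc and Jchain passed the test of the difference between the sexes. DESeq2 called 6 higher, and 2 of the 4 of at least 5 CPM rose. Leaving out 1 library gave 2 to 5, with 5 without the library labelled HIRA KO male replicate 3. Outside this list, Igha, the heavy chain of IgA, was at 102, 113 and 389 CPM in HIRA KO males and 103, 124 and 100 CPM in HIRA KO females, against 2.10, 3.41 and 3.25 CPM in control males and 18.5, 15.0 and 11.2 CPM in control females (log2 fold change 4.49, SE 0.32, adjusted p = 1.43e-06). Igha did not overlap in either sex, which was a condition for its choice, whereas Ighm, the IgM heavy chain, did not pass (-0.57). Immunoglobulin genes share segments, so reads may be split between them. Summed, the lymphoid list was at 432 to 1292 CPM in HIRA KO males against 70.5 to 206 CPM in control males, and at 351 to 707 CPM in HIRA KO females against 293 to 1105 CPM in control females.

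Of 18 neutrophil and erythroid markers tested, the globin genes Hbb-bs (1.49) and Hbb-bt (1.69) rose, and 5 rose without the library labelled HIRA KO male replicate 3 and 4 without HIRA KO male replicate 2. DESeq2 called 7 higher and limma voom 1, and none was called in males alone or in females alone by edgeR. Alas2, the erythroid heme enzyme, did not pass (0.41). Of 41 cell cycle genes none passed in either direction by edgeR with both sexes together. An unadjusted edgeR p under 0.05 was found for 5, 3 of them higher. The median was 0.44, or -0.01 among the 15 of at least 5 CPM. In males alone 1 was called higher, and in females alone 1 was called lower. DESeq2 called 1 higher and limma voom 1 lower, and 1 was higher without the library labelled HIRA KO male replicate 3. Of 34 p53 targets and senescence genes 4 rose and 1 fell, against 2.12% and 1.59% of all genes tested. The rises numbered 3 to 6 when 1 library was left out, with 6 without the library labelled HIRA KO male replicate 3. Cdkn1a, which encodes the cell cycle inhibitor p21, was at 49.2, 13.8 and 11.3 CPM in HIRA KO males against 5.27, 4.47 and 8.26 CPM in control males. In females Cdkn1a was at 7.65, 16.4 and 10.6 CPM against 5.41, 2.49 and 3.92 CPM (log2 fold change 1.80, SE 0.36, adjusted p = 0.0054). The highest of these, HIRA KO male replicate 1, also had the highest Vim and Bc1. Gadd45b (1.93) and Cxcl1 (1.04) rose, the last keeping its call in 4 of 12 fits without 1 library (0.84 to 1.28). Cdkn2a (1.74, adjusted p = 0.285) did not pass, and Cdkn2b, at 0 counts in HIRA KO males and at most 0.90 CPM in any library, a level at which HIRA KO male libraries list few genes, was called lower (call kept in 5 of 12 fits).

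Stress, acute phase, clock and respiratory genes held 1 to 3 calls a list in both sexes together, against 2.12% higher and 1.59% lower over all genes. In males alone 4 clock genes rose and 1 fell (2.06% and 2.05% of all genes). Also in males alone 3 acute phase genes and 1 respiratory gene rose, and 1 stress gene fell. In females alone 1 acute phase gene fell, and the other lists held no call. Leaving out 1 library gave 1 to 4 rises among clock genes. Of 33 genes of the unfolded protein and integrated stress response 1 rose, Creld2 (1.37), at 221 CPM in HIRA KO male replicate 1 and 28.1 to 66.7 CPM in the other HIRA KO libraries. Its call was kept in 2 of 12 fits without 1 library, and the estimate without that replicate was 0.59. Rises numbered 0 to 3 in this list and 2 to 5 among acute phase genes when 1 library was left out, with 2 (and 1 fall) and 5 without the library labelled HIRA KO male replicate 3. Acute phase genes had 2 rises, Saa3 (1.98) and Ccl5 (2.10), and 1 fall, Hamp2 (-1.48), of 41, with that of Hamp2 kept in 5 of 12 fits (-1.72 to -0.97). Clock genes had 2 rises, Usp2 (1.49) and Ciart (1.63), and 1 fall, Nfil3 (-1.09), of 21; Nfil3 was not called without the library labelled HIRA KO male replicate 3, and Ciart and Nfil3 each kept the call in 6 of 12 fits (1.36 to 1.96 and -1.52 to -0.91). Times of day at collection are not given in the sources used here. Of 47 respiratory chain subunits 2 rose, the heart and muscle isoforms Cox8b and Cox7a1 (1.5, call kept in 7 of 12 fits, 1.32 to 1.81), and the median was 0.26. Of these subunits 10 had a higher value at an adjusted p below 0.05, most of them under the fold threshold, and none of the 45 of at least 5 CPM was called higher. Cox8b was at 11.3, 5.06 and 3.38 CPM in HIRA KO males and 0 in control males (at least 140-fold higher), and at 1.58, 0.64 and 0.15 CPM in HIRA KO females.

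Sex-biased liver genes were compared within each sex, since growth hormone and sex steroids set many liver enzymes apart between males and females. Of 29 male-biased genes 6 fell and 2, Cyp2d9 and Gstp2, rose (median -0.47; males -0.81, females -0.17), with 4 to 9 falls when 1 library was left out and 5 without the library labelled HIRA KO male replicate 3. Mup3, a major urinary protein, had a log2 fold change of -2.79, with -2.75 in males and -2.82 in females, and Mup21 of -2.10; Mup genes share reads, so single members are uncertain. Elovl3 was at 128, 33.0 and 47.8 CPM in HIRA KO males against 470, 568 and 450 CPM in control males, without overlap. The carboxylesterase Ces4a was at 0 counts in all HIRA KO males (0.389 to 3.35 CPM in control males), a level at which those libraries list few genes, and kept its call in 2 of 12 fits. Of 39 female-biased genes 8 rose and 4 fell, or 7 and 6 without the library labelled HIRA KO male replicate 3. Leaving out 1 library gave 4 to 9 rises, with 4 without HIRA fl/fl AAV ctl male replicate 1 or HIRA fl/fl AAV ctl female replicate 2 or 3 and 5 without HIRA KO female replicate 1 or 3, and 1 to 6 falls, with 1 without HIRA KO female replicate 2 or 3 or HIRA fl/fl AAV ctl male replicate 1. Their median was 1.08 in males and -0.85 in females, with 9 called higher and 3 lower in males and 2 higher and 4 lower in females. Cyp2b13, female-biased in normal liver, was at 208, 326 and 323 CPM in HIRA KO males against 0.56, 0.27 and 1.17 CPM in control males, and at 656, 221 and 93.0 CPM in HIRA KO females against 24.1, 154 and 219 CPM in control females. Males did not overlap in Cyp2b13 and females did, and HIRA KO males reached the level of females. The peroxisomal oxidase Hao2 (males 2.66, females 0.81) and the neurotrophin receptor Ntrk2 (males 1.99, females 1.16) rose, and Cyp2c40 (males -2.87, females -0.63) fell; Hao2 and Cyp2c40 kept their calls in 6 and 9 of 12 fits (1.47 to 2.41 and -2.00 to -1.23). Cidea, a lipid droplet protein, was likewise at 0 counts in all HIRA KO males and kept its call in 6 of 12 fits. No fold is given for Ces4a and Cidea, since low counts were seldom listed in HIRA KO males.

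The test of the difference between the sexes passed for 23 genes (0.103% of the genes tested; edgeR adjusted p below 0.05 for the female minus the male log2 fold change, no fold threshold), and 2 to 81 when 1 library was left out, with 2 without HIRA KO female replicate 2 and 68 without the library labelled HIRA KO male replicate 3. Cyp2d9, male-biased in normal liver, had the smallest p: it was at 132, 135 and 115 CPM in HIRA KO females against 5.41, 9.06 and 10.8 CPM in control females, and at 1350, 1046 and 1332 CPM in HIRA KO males against 746, 888 and 623 CPM in control males. The log2 fold change was 3.91 in females and 0.72 in males, a difference of 3.19 (SE 0.31, adjusted p = 0.000937). HIRA KO females thus stood between control females and control males. Agxt, which clears glyoxylate, was at 97.2, 99.6 and 106 CPM in HIRA KO males against 298, 330 and 329 CPM in control males, while females overlapped (298, 494 and 359 against 426, 387 and 351 CPM; difference 1.65, SE 0.25, adjusted p = 0.0214). The aldehyde oxidase Aox3 fell in males to the level of females, from 810, 691 and 533 CPM to 170, 180 and 99.9 CPM, with 142 to 182 CPM in HIRA KO females and 159 to 218 CPM in control females (difference 2.04, adjusted p = 0.0235). Eci3, an isomerase of fatty acid oxidation, was called in opposite directions: it fell in females, from 55.3, 35.4 and 55.2 CPM to 10.2, 4.14 and 1.33 CPM, and rose in males, from at most 0.31 CPM to 1.15, 2.25 and 0.77 CPM.

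**Figure D5:**
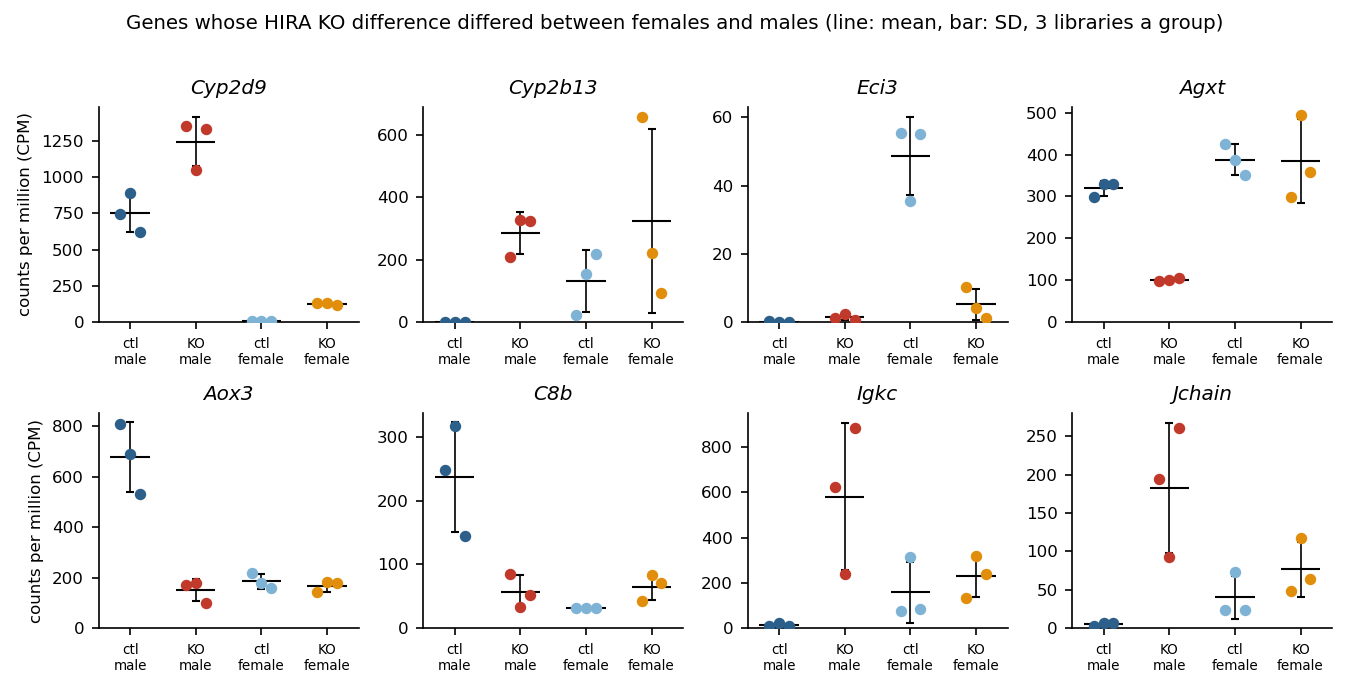
CPM (y axis, linear, from 0) of 8 genes whose HIRA KO difference differed between the sexes, in each library (points) with the mean (line) and SD (bar) of 3. Cyp2d9 is higher in HIRA KO females than in control females, Cyp2b13 is higher in HIRA KO males, Agxt and Aox3 are lower in males with overlapping females, and Igkc and Jchain are high in HIRA KO males.

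The immunoglobulin genes Igkc, Jchain, Ighg2b, Ighg2c, Ighv1-4 and Igkv1-135 and a further kappa variable gene were among the 23. Igkc was at 622, 238 and 884 CPM in HIRA KO males against 10.0, 23.0 and 10.8 CPM in control males, and at 134, 320 and 239 CPM in HIRA KO females against 78.1, 315 and 85.6 CPM in control females (difference -4.78, SE 0.80, adjusted p = 0.0306). Control males had the lowest level, and HIRA KO males the highest on average, so that the difference rests on the males. Xist, the long RNA of the inactive X chromosome, was at 7.80, 9.46 and 13.7 CPM in HIRA KO males against 0.61, 1.54 and 1.85 CPM in control males, and at 388 to 455 CPM in the 6 female libraries. The HIRA KO males were thus above the control males and far below every female library, while the Y-linked Ddx3y was at 62.4 to 94.9 CPM in HIRA KO males and 59.5 to 79.6 CPM in control males.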

How the data were processed

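Liver RNA of 12 libraries, grouped by their labels (HIRA KO and HIRA fl/fl AAV ctl, 3 male and 3 female each), was measured by polyA-selected, strand-specific RNA-seq. According to the methods the authors used Trim Galore for trimming, STAR for alignment to mm10 and HOMER for gene quantification; the submitters' processing notes list STAR, HTSeq and Cufflinks, so which program wrote the gene counts is uncertain, and the annotation release and the use of strand in counting are not given in the sources used here. The deposited table holds whole-number counts per gene as the authors made them, not normalized, and a second deposited table holds FPKM values, of which 7763 were blank where counts were above 0, so that FPKM served as an alternative alone. Every column was matched to a library by its name (0 unmatched).

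Counts were tested with edgeR 4.0.16 (quasi-likelihood test, TMM normalization, 4 means of group and sex, R 4.3.3) for genes with at least 10 counts over the 12 libraries. The difference in both sexes is the mean of the male and the female difference. A gene was called where p, adjusted by Benjamini-Hochberg, was below 0.05 and the log2 fold change exceeded 1 in size, and the female minus male difference at an adjusted p below 0.05. CPM are counts divided by TMM-scaled library sizes, in the usual unit. Totals of 15210023 to 24389407 counts per library set the precision, and genes of a few counts were imprecise. No 2 libraries of a group differed by as little as counting noise. The script was tested on simulated counts with known changes. Alternatives were DESeq2 1.42.0, limma 3.58.1 (voom with quality weights, and log2 of FPKM with pseudocounts of 1 and 0.1), other normalizations and filters, sex left out, a block for the replicate number, and each library left out in turn.

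The members (libraries, taken by label) and the 32 gene lists were chosen with earlier results of these data known. The genes named were those of the HIRA and H3.3 list, the 12 largest rises and 12 largest falls among called genes of at least 5 CPM on average whose groups did not overlap in either sex, up to 4 called members of smallest p per list with the most abundant cell type markers, and the sex-dependent genes of smallest p, apart from a few that are not reported here. Chosen after their values were seen were the following 104: Ddx3y, Eif2s3y, Kdm5d, Uty, Igkv1-135, Slc17a8, C8b, Agxt, Aox3, Cd5l, E230016M11Rik, Eci3, Ighv1-4, Upp1, Il7, Serpina7, Foxk2, Gm12912, Krt19, Krt7, Epcam, Sox9, Mvd, Idi1, Fdft1, Cyp51, Dhcr7, Ebp, Scd1, Fasn, Acacb, Acss2, Elovl6, Pnpla3, Hnf4a, Cebpb, Ttr, Rbp4, Cyp3a11, Cyp2b9, Cyp2b10, Cyp2c65, Cyp2c69, Cyp2c40, Cyp2a4, Gsta2, Afp, H19, Gpc3, Gpnmb, Itgax, Ccr2, Lgals3, Clec4f, Adgre1, Col3a1, Col5a2, Col15a1, Mmp2, Timp1, Cxcl1, Cdkn2a, Pck2, Slc1a4, Cyp7a1, Glul, Ces3a, Lrp2, Cyp2c70, Cyp8b1, Nqo1, Gclc, Srxn1, Hmox1, Car3, Cyp2e1, Axin2, Lgr5, Muc1, Bicc1, Pkhd1, Ly6d, Fn1, Col18a1, Lrat, Reln, Des, Acta2, Vsig4, Timd4, Cyp2c50, Cyp2c54, Ces1g, Cyp3a59, Hao2, Ntrk2, Cidea, Ces4a, Nsdhl, Sc5d, Acat2, Col6a3, Lama2, Ltbp1. Coordinates come from GENCODE vM21 and promoter windows from RefSeq (GRCm38.p6), both mm10. Pairing by replicate number was checked and not found. Python 3.11.15, pandas 2.3.3 and matplotlib 3.10.9 made tables and plots.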

Additional observations from a re-analysis of the deposited data

Results flagged for a closer look

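The difference between HIRA KO and HIRA fl/fl AAV ctl itself differed between the sexes for 23 genes (edgeR quasi-likelihood test of the female minus the male log2 fold change, adjusted p below 0.05). That count ranged from 2 to 81 when 1 library was left out, and it was 1 at an adjusted p below 0.01, so most of these genes lie near the threshold.

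Among hepatocyte genes the female minus male log2 difference was 3.19 for Cyp2d9, 3.09 for the complement gene C8b, 2.15 for the transporter Slc17a8, 2.04 for Aox3, 1.78 for the thyroxine carrier Serpina7, 1.65 for Agxt, -6.93 for Eci3 and -7.43 for Cyp2b13. C8b was at 85.5, 33.6 and 51.4 CPM in HIRA KO males against 249, 316 and 145 CPM in control males, and at 42.2, 83.8 and 70.3 CPM in HIRA KO females against 31.5, 32.4 and 32.4 CPM in control females. Neither sex overlapped, and the directions were opposite. Serpina7 was at 66.6, 74.5 and 91.6 CPM in HIRA KO males against 106, 194 and 138 CPM in control males, and at 104, 114 and 89.8 CPM in HIRA KO females against 46.8, 58.2 and 63.9 CPM in control females, so that the 2 HIRA KO groups lay closer to each other than the control groups did.

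Among genes of blood and immune cells the difference was -4.78 for Igkc, -4.20 for Jchain, -4.47 for Ighg2c, -5.03 for Ighg2b, -5.47 for a further kappa variable gene, -8.04 for Igkv1-135, -12.77 for Ighv1-4 and -1.44 for the macrophage gene Cd5l. Ighv1-4 was at 0 counts in all control males, so its value depends on the prior count of the fit. Of the other genes it was -2.87 for Xist, -3.38 for Meg3, -1.32 for the transcription factor gene Foxk2 and -6.46 for Gm12912. It was 8.90 for E230016M11Rik, 8.86 for the uridine phosphorylase Upp1 and 8.31 for the cytokine Il7. Each of these was at 0 counts in all HIRA KO males, so these values also depend on the prior count of the fit. HIRA KO male libraries listed few genes at such low levels, and the part of this in the values of Upp1, E230016M11Rik and Il7 was not tested.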

How the results depend on the processing

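With both sexes together, 833 genes were called, against 2084 without a fold threshold, 410 at an adjusted p below 0.01, 1322 by DESeq2, 526 at 5 CPM or more, 498 on log2(FPKM + 1), 372 on log2(FPKM + 1) without a filter, 498 with no sex in the model, and 581 to 1298 when 1 library was left out. Male calls, 921, became 1466 without a fold threshold, 337 at an adjusted p below 0.01, 1811 by DESeq2, 1609 without a filter on low counts, 502 by limma voom, 475 on log2(FPKM + 1) without a filter, 303 in a separate fit, and 371 to 1803 when 1 library was left out. Female calls, 215, became 324, 105, 459, 519, 1076, 121 and 597 under the same settings in the same order, and 106 to 338 when 1 library was left out. The 23 genes that differed between the sexes became 1 at an adjusted p below 0.01, 292 by DESeq2, 388 without a filter, 36 on log2(FPKM + 1) without a filter, and 2 to 81 when 1 library was left out. The cause of these shifts was not tested. Eci3, not called in both sexes together, reversed to -1.14 on log2(FPKM + 1) and -1.26 on log2(FPKM + 0.1). Of 150 called genes named, none reversed in any alternative run, 103 kept their call when any 1 library was left out, 142 without the library labelled HIRA KO male replicate 3, 141 of 149 under DESeq2, 130 of 150 under limma voom, 132 of 137 at 5 CPM or more, and 102 of 139 on log2(FPKM + 1), where H3f3a, Serpina1d and Gstp2 lost theirs. In males the median of all genes ran from -0.12 under limma voom to 0.10 on log2(FPKM + 1), against 0.00 as reported.

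A replicate block gave 617 calls with both sexes together (345 higher, 272 lower) and kept 131 of the 150 called genes named; same-numbered libraries did not deviate together (correlations -0.077 to 0.077), so the numbers name the libraries and do not pair them. With 3 libraries a group and sex, genes below about 1 CPM rest on few counts, and in HIRA KO males such genes were rarely listed. Hira was highest of the 12 in the library labelled HIRA KO male replicate 3, against its label.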
